A study of Mus musculus with 35 samples.

Results

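Markers of valence projection neurons, the cells of the basolateral amygdala (BLA) that carry signals of reward or threat to other brain areas, were followed in RNA-seq libraries of the anterior and posterior amygdala of female mice. The set held 10 of the 52636 genes in the count files, chosen by name and matched by symbol to their Ensembl identifiers: Rspo2, Ppp1r1b, Fezf2, Tac1, Lypd1, Etv1, Thy1, Nts, Ntsr1 and Ntsr2. All 10 were counted in each library and entered all 17 comparisons.

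The mice were C57BL/6J, an inbred strain, or B6D2F1N, a hybrid of a C57BL/6 and a DBA/2 parent, and lived in standard cages, called control environment in the labels, or in an enriched environment with a playground for 1 h a day from postnatal day 77. All were female, food-restricted, trained on a touchscreen from postnatal day 70 for 37 to 90 days and then given a cognitive judgement bias test, in which choices at ambiguous cues mark a mouse as optimist or pessimist. Cells were cut by laser from stained brain sections. The 35 libraries came from 19 mice, 8 C57BL/6J and 11 B6D2F1N, with 16 anterior and 19 posterior libraries, and 16 mice (6 C57BL/6J and 10 B6D2F1N) gave both. In C57BL/6J there were 4 standard and 2 enriched anterior libraries and 4 standard and 4 enriched posterior ones. In B6D2F1N there were 5 standard and 5 enriched anterior libraries and 5 standard and 6 enriched posterior ones. Mice are named by strain, housing and a number. The study's methods place the sections called posterior nearer to bregma than those called anterior, the reverse of the anatomical order, so the portion names are used here only as labels.

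In the BLA, projection neurons that mark threat and those that mark reward are intermingled but unevenly spread. Rspo2, which encodes a secreted enhancer of Wnt signalling, is known to mark projection neurons of the anterior, magnocellular BLA, and Ppp1r1b, which encodes the dopamine-regulated phosphatase inhibitor DARPP-32, marks those of the posterior, parvocellular BLA. Fezf2 is a transcription factor of deep-layer cortical and amygdala projection neurons, Etv1 is an ETS transcription factor, Thy1 is a neuronal surface glycoprotein whose promoter drives many projection-neuron transgenes, and Lypd1 is a Ly6 protein that binds nicotinic receptors. Tac1 encodes the precursor of substance P and Nts that of neurotensin, and Ntsr1 and Ntsr2 are G protein-coupled neurotensin receptors. Whether Rspo2 and Ppp1r1b lie on opposite sides of the portion labels was the first question put to the data.

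Libraries held between 16938534 and 27352623 counts, with a median of 21409708. The excitatory neuron markers were present in every library, with a summed level of 7 markers between 1962 and 4646 CPM (counts scaled to a common library size) in anterior and between 1139 and 5669 CPM in posterior libraries. Of these 7 genes, 5 differed between portions over both strains (1 higher and 4 lower in posterior libraries). The vesicular glutamate transporter Slc17a7, typical of the BLA and cortex, was lower by a log2 fold change of -1.27, and Slc17a6, the transporter of subcortical nuclei, was higher by 1.46. Of the same 7 markers, mean Tbr1 fell from 30.6 CPM in anterior to 7.34 CPM in posterior libraries and mean Neurod6 from 160 to 59.2 CPM. Choroid plexus markers rose in posterior libraries in 6 of 6 cases, from a summed level of 6.51 to 928 CPM (median 11.5) to one of 117 to 14220 CPM (median 1443), and ependymal markers rose in 5 of 5. Striatal projection neuron markers, which share Ppp1r1b, reached 1205 CPM in anterior and 3116 CPM in posterior libraries. The adenosine receptor gene Adora2a, a defining marker of that type, was above 100 CPM in 4 posterior libraries, at 473 CPM in B6D2F1N standard mouse 4, 219 in B6D2F1N standard mouse 5, 195 in C57BL/6J enriched mouse 4 and 143 in C57BL/6J standard mouse 3, and at 0 in 1 posterior library, that of B6D2F1N enriched mouse 5. Both libraries of B6D2F1N standard mouse 1 had 0 counts of Xist, which is transcribed from the inactive X chromosome of female cells, and 0 counts of 4 Y-linked genes. Values without that mouse, without the mice with high Adora2a and without the 2 with Ttr above 10000 CPM in the posterior library are given where they change a call.

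Promoter sequences are shown for the 3 members that rose in posterior libraries within a strain, Lypd1 and Nts in C57BL/6J and Tac1 in B6D2F1N. They are RefSeq windows of 300 bases on GRCm38.p6 that run from before a start site to just past it, read 5′ to 3′ on the strand of the gene. Of the 10 members 7 had at least 1 such window, and for Lypd1 the most upstream of 3 is shown. Capitals mark matches on either strand to 3 motifs. These motifs are the box named after its letters CCAAT, an E-box of the NeuroD type with the letters CAGATG and an AP-1 site with the letters TGACTCA. The core of the TATA box, spelled TATAAA, and the cAMP response element, spelled TGACGTCA, were searched as well and gave no match in these 3 windows. The Lypd1 window lies at chr1:125912879-125913178 on the minus strand, the Tac1 window at chr6:7554811-7555110 on the plus strand and the Nts window at chr10:102490369-102490668 on the minus strand.
Lypd1: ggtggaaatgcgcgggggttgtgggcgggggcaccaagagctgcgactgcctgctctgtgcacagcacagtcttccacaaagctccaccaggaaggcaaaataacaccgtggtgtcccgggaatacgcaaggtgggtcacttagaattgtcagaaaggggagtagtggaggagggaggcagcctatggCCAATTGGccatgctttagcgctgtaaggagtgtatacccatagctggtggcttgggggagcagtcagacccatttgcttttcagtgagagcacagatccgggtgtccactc
Tac1: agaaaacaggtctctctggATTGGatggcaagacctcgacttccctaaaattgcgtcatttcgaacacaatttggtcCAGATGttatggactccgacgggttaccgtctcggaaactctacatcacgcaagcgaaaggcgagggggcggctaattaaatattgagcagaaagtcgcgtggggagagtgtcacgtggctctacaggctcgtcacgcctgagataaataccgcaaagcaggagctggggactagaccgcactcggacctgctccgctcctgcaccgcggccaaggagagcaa
Nts: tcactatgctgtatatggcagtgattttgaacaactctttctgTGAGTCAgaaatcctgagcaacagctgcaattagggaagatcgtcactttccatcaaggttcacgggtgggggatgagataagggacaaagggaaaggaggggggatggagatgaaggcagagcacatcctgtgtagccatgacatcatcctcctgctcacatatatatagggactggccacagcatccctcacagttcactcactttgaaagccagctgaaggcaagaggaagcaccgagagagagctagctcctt

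The Lypd1 capitals are a CCAAT box at -62 and, overlapping it, a CCAAT box on the opposite strand at -59. The Tac1 capitals are a CCAAT box on the opposite strand at -231 and the E-box at -173, and the Nts capitals are an AP-1 site on the opposite strand at -207. No motif was shared by all 3 windows. Over all 32851 promoter windows, 37.4% held the CCAAT letters, 17.2% the E-box, 13.6% the TATA core, 5.20% the AP-1 site and 1.79% the cAMP response element. A match describes the letters only.

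Per kilobase of exons and over the 35 libraries, Thy1 stood highest at 282 ± 98.5 CPM per kb (SD, n = 35) and Ntsr1 lowest at 1.68 ± 0.964. Between them the order was Nts (43.3 ± 35.6), Lypd1 (36.0 ± 26.4), Ntsr2 (28.7 ± 22.0), Rspo2 (19.4 ± 20.4), Ppp1r1b (13.1 ± 10.3), Tac1 (10.9 ± 7.86), Etv1 (9.34 ± 3.01) and Fezf2 (3.80 ± 1.43). Neighbours in this order were separated by more than their spread at Thy1 and Nts and at Etv1 and Fezf2, and not elsewhere. Rspo2 was second at 37.5 ± 17.2 CPM per kb in the anterior libraries (n = 16) and eighth at 4.26 ± 2.77 in the posterior ones (n = 19). The lowest count of a member in any library was 1 for Rspo2 and 25 for Ntsr1, and it was higher for each of the other members.

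Rspo2 was the member with the lowest p-value in the comparison of portions over both strains. Anterior CPM in C57BL/6J standard mice 1 to 4 were 169, 309, 277 and 238, against 17.7, 48.3, 24.8 and 54.2 in their posterior libraries. The 2 enriched C57BL/6J mice with both portions, mice 1 and 3, had 119.5 and 119 anterior and 26.8 and 32.1 posterior CPM, and the posterior libraries of mice 2 and 4 had 11.0 and 11.4. In this strain no posterior value reached the lowest anterior one. In B6D2F1N standard mice 1 to 5, anterior CPM were 310.1, 194, 33.5, 218 and 141.5, and posterior CPM were 30.9, 13.6, 12.8, 0.0427 and 7.55. In enriched B6D2F1N mice 1, 2, 3, 4 and 6, anterior CPM were 33.1, 194, 165, 289 and 257.5, while the 6 posterior libraries lay between 4.33 and 32.0 with a median of 19.8. Rspo2 was lower in the posterior library in 16 of 16 mice, by a log2 difference between -1.09 and -10.6 with a median of -3.29. The lowest posterior value, in B6D2F1N standard mouse 4, is 1 count, in a library that also had the highest Adora2a. The log2 difference of -10.6 is from that mouse, and its size depends on the prior count of 2 in the log2 CPM. The lowest anterior values came from B6D2F1N standard mouse 3 and B6D2F1N enriched mouse 1. The anterior library of the first had the highest summed level of intercalated cell markers (485 CPM, against a median of 84.5 over anterior libraries), and that of the second had the highest choroid plexus sum of an anterior library (928 CPM); their part in the Rspo2 values was not tested.

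**Figure D1:**
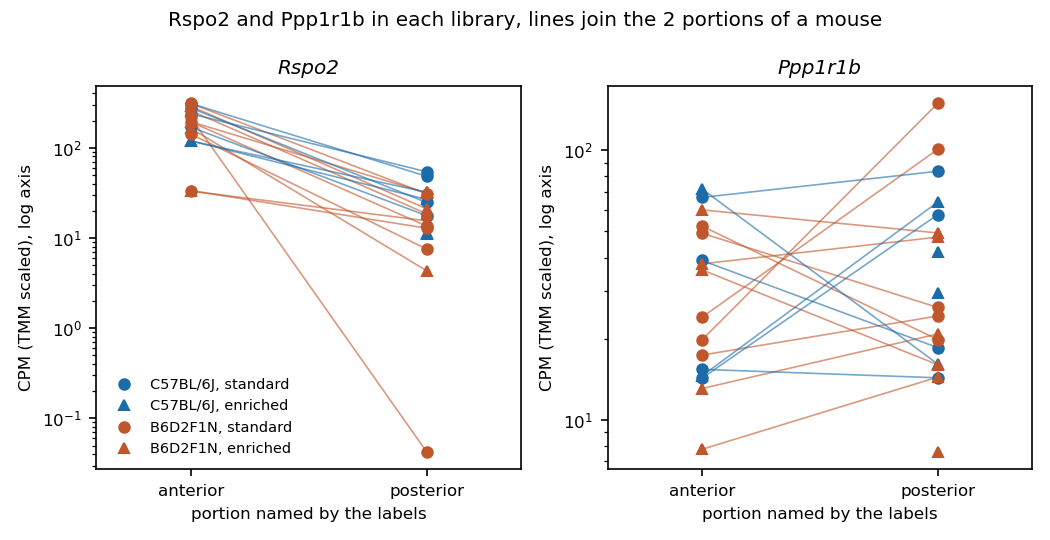
CPM (log scale) of Rspo2 and Ppp1r1b in the anterior and posterior library of each mouse, with lines joining the libraries of 1 mouse, colours for strain and symbols for housing. Every Rspo2 line falls from anterior to posterior (16 of 16 mice), whereas 9 Ppp1r1b lines rise and 7 fall.

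Posterior against anterior, Rspo2 was 6.04-fold lower in C57BL/6J (log2 fold change -2.59 ± 0.21, SE, 95% interval -3.05 to -2.14; edgeR quasi-likelihood test with Benjamini-Hochberg adjustment over all genes, adjusted p = 1.11e-06). It was 12.3-fold lower in B6D2F1N (-3.63 ± 0.56, -4.80 to -2.45, adjusted p = 0.000839 in edgeR) and 9.04-fold lower over both strains (-3.18 ± 0.38, adjusted p = 2.17e-06). With each mouse left out in turn it was -3.31 to -2.97 over both strains. The Rspo2 call held in every fit that left out 1 mouse, in each strain and in both. Without B6D2F1N standard mouse 1 it was -3.17 over both strains (adjusted p = 8.45e-06 in edgeR). Of all 29437 genes tested, 0.758% had a lower CPM in the posterior library of each of the 16 mice, as Rspo2 did. In bulk libraries fewer cells of a type and less RNA per cell cannot be told apart.

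Ppp1r1b did not pass the test in either direction. Anterior CPM in C57BL/6J standard mice 1 to 4 were 14.2, 39.0, 66.8 and 15.4, and posterior CPM were 57.7, 18.5, 83.6 and 14.3. In C57BL/6J enriched mice 1 and 3 anterior CPM were 72.0 and 14.5, and in enriched mice 1 to 4 posterior CPM were 16.1, 29.7, 64.2 and 42.0. In B6D2F1N standard mice 1 to 5 anterior CPM were 52.4, 17.4, 49.3, 19.8 and 24.0, and posterior CPM were 19.8, 24.3, 26.1, 149 and 101. The portions overlapped in each strain, and the highest values came from the posterior libraries of B6D2F1N standard mice 4 and 5, which also held the most Adora2a. In enriched B6D2F1N mice 1, 2, 3, 4 and 6 anterior CPM were 37.9, 13.1, 60.1, 7.76 and 36.0, and the 6 posterior libraries lay between 7.61 and 49.4 with a median of 18.4. Ppp1r1b was higher in the posterior library in 9 mice and lower in 7.

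The Ppp1r1b log2 fold change was 0.20 ± 0.44 in C57BL/6J (95% interval -0.74 to 1.13, adjusted p = 0.93 in edgeR), 0.33 ± 0.35 in B6D2F1N (-0.40 to 1.06, adjusted p = 0.71) and 0.29 ± 0.31 over both strains (-0.34 to 0.92, adjusted p = 0.66). None of these intervals reaches the size of the Rspo2 change in either direction. Leaving out 1 mouse moved the C57BL/6J value between -0.21 and 0.68, below 0 without standard mouse 1 or enriched mouse 3. Leaving out mice with Adora2a above 100 CPM in the posterior library, a choice made after seeing the data, gave -0.17 in B6D2F1N (2 mice left out) and -0.04 over both strains (3 left out). The 2 B6D2F1N mice were standard mice 4 and 5, with the largest posterior rises of Ppp1r1b in that strain (log2 differences 2.91 and 2.07). A lower value was therefore built into this choice. C57BL/6J enriched mouse 4 has no anterior library and was in none of these fits. In the Ppp1r1b exons, 460 bases (15.7%) overlap 1700003D09Rik on the opposite strand, a gene with 74 counts over all libraries. Whether counting used strand is not given in the sources used here, and reads of that stretch are uncertain. Over the 19 posterior libraries the log2 CPM of Ppp1r1b was set against the mean log2 CPM of the striatal markers. Pearson's r was 0.58 (permutation p = 0.00876, adjusted p = 0.0701 over 8 relations) and Spearman's rho 0.39 (permutation p = 0.10). Without the 2 libraries farthest from the median of that marker mean, r was 0.28. Over the 16 anterior libraries r was 0.42 (permutation p = 0.105, adjusted p = 0.189) and rho 0.52 (permutation p = 0.0403, adjusted p = 0.323), and r was 0.53 without the 2 farthest. None of the 8 relations of a member to the mean log2 CPM of a marker list passed after adjustment. Rspo2 therefore stood higher in the libraries labelled anterior, and Ppp1r1b stood higher at neither label beyond the spread between mice. Whether that label names the anatomical end where Rspo2 is known to mark cells was not tested. Mean Slc17a7 also fell from 556 CPM in anterior to 224 CPM in posterior libraries, and mean Slc17a6 rose from 82.0 to 211 CPM. The part of such tissue differences in the Rspo2 values was not tested.

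**Figure D2:**
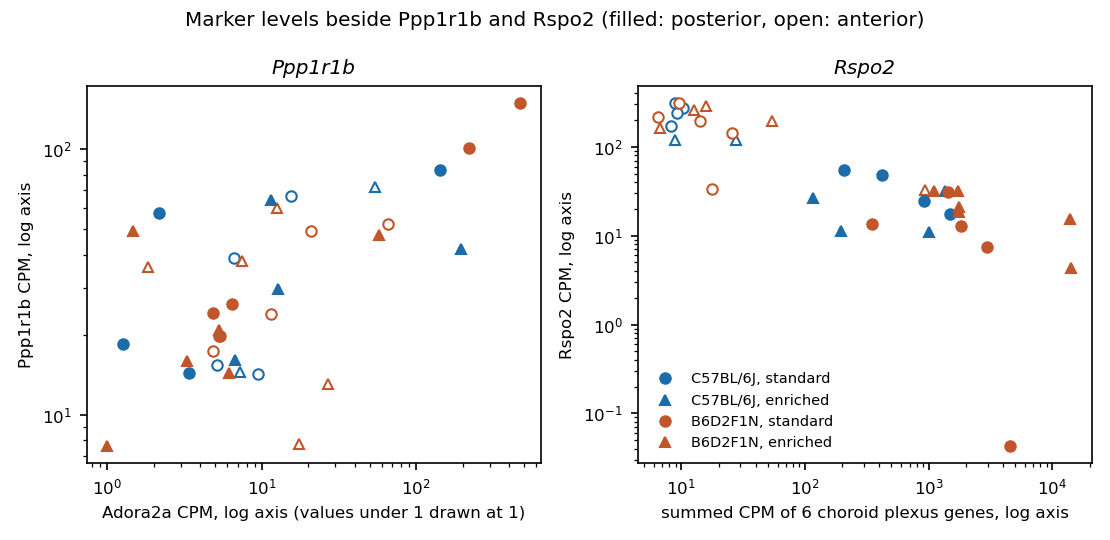
CPM of Ppp1r1b against Adora2a, a striatal marker, and of Rspo2 against the summed CPM of 6 choroid plexus genes, 1 point per library on log axes (filled posterior, open anterior), with Adora2a values under 1 drawn at 1. The 4 posterior libraries with Adora2a above 100 CPM include the highest Ppp1r1b values (149 and 101 CPM), and posterior libraries lie at low Rspo2 and at choroid plexus sums of 117 CPM or more.

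Tac1, the substance P precursor, passed the test in B6D2F1N and not in C57BL/6J. In B6D2F1N standard mice 1 to 5 anterior CPM were 11.0, 13.8, 101, 16.2 and 18.7, and posterior CPM were 31.0, 69.5, 63.7, 86.4 and 59.9. In enriched B6D2F1N mice 1, 2, 3, 4 and 6 anterior CPM were 18.2, 12.7, 31.7, 12.4 and 21.2, and the 6 posterior values ran from 13.5 to 109 with a median of 29.5. The standard groups would not overlap but for mouse 3, the anterior library with low Rspo2 and high intercalated markers. Tac1 was higher in the posterior library in 8 of 10 B6D2F1N mice, by a log2 fold change of 1.17 ± 0.31 (95% interval 0.53 to 1.81, 2.25-fold, adjusted p = 0.0358 in edgeR). The 10 fits that left out 1 mouse gave 1.03 to 1.39, and the call was lost in 6 of them, those without standard mouse 1, 2, 4 or 5 or enriched mouse 1 or 4. Without standard mouse 1 it was 1.14 (adjusted p = 0.0781 in edgeR), without the high-Adora2a mice 0.93 (adjusted p = 0.17) and without the high-Ttr mice 1.07 (adjusted p = 0.125). In C57BL/6J it was higher in 3 of 6 mice, with standard anterior CPM of 37.9, 26.5, 26.6 and 18.5 and posterior CPM of 33.2, 33.5, 43.1 and 17.4. The log2 fold change there was -0.20 ± 0.29 (-0.81 to 0.42, adjusted p = 0.87 in edgeR). Against the mean log2 CPM of the striatal markers, Pearson's r of Tac1 was 0.50 over the 19 posterior libraries (permutation p = 0.0307, adjusted p = 0.123). Over the 16 anterior libraries it was 0.47 (permutation p = 0.0701, adjusted p = 0.187). Spearman's rho was 0.34 (permutation p = 0.162) and 0.33 (permutation p = 0.216). Without the 2 farthest libraries r was 0.34 and 0.37. The part of striatal cells in the Tac1 values was not tested.

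Nts, the neurotensin precursor, rose in posterior libraries of C57BL/6J mice. Standard mice 1 to 4 had anterior CPM of 40.2, 10.9, 11.2 and 17.3 and posterior CPM of 49.8, 94.3, 51.9 and 84.8, without overlap. Enriched mice 1 and 3 had 18.5 and 50.4 anterior CPM, and enriched mice 1 to 4 had 53.6, 22.5, 47.2 and 98.2 posterior CPM, so these overlapped. Nts was higher in the posterior library in 5 of 6 mice, 2.96-fold in the fit (log2 fold change 1.56 ± 0.33, 95% interval 0.86 to 2.27, adjusted p = 0.00987 in edgeR). The call was lost without standard mouse 4 (adjusted p = 0.0683 in edgeR). In B6D2F1N the value was close to that with a wider error, 1.49 ± 0.79 (-0.17 to 3.15, adjusted p = 0.39 in edgeR), and it was higher in 6 of 10 mice. Standard B6D2F1N mice 1 to 5 ran from anterior CPM of 9.81, 4.70, 82.5, 16.4 and 54.1 to posterior CPM of 148, 52.9, 55.5, 3.46 and 19.5, and those with lower posterior values, mice 3, 4 and 5, included both with the highest Adora2a. Enriched B6D2F1N mice 1, 2, 3, 4 and 6 had 18.1, 2.45, 72.2, 7.48 and 51.6 anterior CPM, and the 6 posterior libraries lay between 27.4 and 176 CPM with a median of 109. Over both strains the value was 1.54 ± 0.51 (adjusted p = 0.062 in edgeR, 0.0486 in DESeq2), and it passed in edgeR without any 1 of B6D2F1N standard mice 3, 4 and 5 and enriched mouse 3, and without the high-Adora2a mice (1.99, adjusted p = 0.0135).

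The receptors of neurotensin did not follow its precursor past the threshold. Ntsr1, the high-affinity receptor, lay between 1.44 and 16.4 CPM (median 3.91) in anterior and between 3.21 and 12.6 CPM (median 7.23) in posterior libraries, with a log2 fold change over both strains of 0.55 ± 0.24 (adjusted p = 0.18 in edgeR). Ntsr2, a receptor better known from astrocytes, lay between 34.5 and 258 CPM (median 59.5) in anterior and between 32.3 and 321 CPM (median 59.9) in posterior libraries, with a value of 0.18 ± 0.26 (adjusted p = 0.77). Both were higher in the posterior library in 9 of 16 mice. Astrocyte markers rose in posterior libraries in 3 of 5 cases, led by Gfap at 1.71. Ntsr2 did not follow the mean log2 CPM of the astrocyte markers past the threshold within a portion. Pearson's r was -0.41 over the 16 anterior libraries (permutation p = 0.118, Spearman's rho = -0.16 with p = 0.557, r = -0.17 without the 2 farthest libraries) and 0.18 over the 19 posterior ones (permutation p = 0.442, rho = -0.14 with p = 0.569, r = -0.36 without those 2).

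Lypd1 rose in posterior libraries of C57BL/6J in 6 of 6 mice. Anterior CPM of standard mice 1 to 4 were 72.4, 204, 110.0 and 98.4, and posterior CPM were 387, 697, 517.5 and 720.2. Enriched mice 1 and 3 had 38.8 and 304 anterior CPM, and enriched mice 1 to 4 had 234, 90.5, 388 and 242.5 posterior CPM. The standard groups did not overlap and the enriched ones did. The fold was 4.18 (log2 fold change 2.06 ± 0.25, 95% interval 1.54 to 2.59, adjusted p = 6.71e-05 in edgeR), and the call held without each of the 6 mice in turn. In B6D2F1N standard mice 1 to 5 anterior CPM were 95.2, 167, 120, 196 and 107, and posterior CPM were 459, 23.4, 40.4, 428 and 457. Enriched B6D2F1N mice 1, 2, 3, 4 and 6 had 37.1, 494, 118, 143.5 and 204 anterior CPM, and the 6 posterior libraries lay between 80.5 and 415 CPM with a median of 277. Standard mice 2 and 3 were low in posterior libraries where mice 1, 4 and 5 were high, the enriched groups overlapped, and the B6D2F1N log2 fold change was 0.47 ± 0.45 (-0.47 to 1.41, adjusted p = 0.67 in edgeR). Over both strains Lypd1 was higher in 12 of 16 mice (1.14 ± 0.36, adjusted p = 0.0454 in edgeR, 0.053 in DESeq2). The 16 fits that left out 1 mouse gave 1.01 to 1.35, and the call was lost in 10, without any 1 of C57BL/6J standard mice 1 to 4, C57BL/6J enriched mouse 1, B6D2F1N standard mice 1, 4 and 5 and B6D2F1N enriched mice 1 and 4. Without B6D2F1N standard mouse 1 it was 1.05 (adjusted p = 0.093 in edgeR), without the high-Adora2a mice 0.94 (adjusted p = 0.225) and without the high-Ttr mice 1.13 (adjusted p = 0.0611). Among 72-base windows of the Lypd1 exons, 17.4% also matched Gpr39, which overlaps it on the opposite strand by 1202 exon bases and had 77 counts over all libraries. Without a known strand setting the Lypd1 reads in that stretch are uncertain, as for Ppp1r1b.

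Of the transcription factors, neither passed the test. Fezf2 lay between 4.49 and 24.0 CPM (median 9.11) in anterior and 6.79 and 18.7 CPM (median 12.4) in posterior libraries, with a log2 fold change of 0.31 ± 0.20 over both strains (adjusted p = 0.43 in edgeR). Etv1 was lower in the posterior library in 14 of 16 mice, from anterior values of 75.6 to 203 CPM (median 141.5) to posterior ones of 41.1 to 163 CPM (median 111), at -0.49 ± 0.16 (adjusted p = 0.053 in edgeR, 0.0248 in DESeq2). Without B6D2F1N standard mouse 1 it was -0.58 (adjusted p = 0.015 in edgeR), and it also passed without B6D2F1N enriched mouse 6. Of its 72-base windows, 19.3% also matched other genes, so its counts are partly uncertain.

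Thy1, the surface glycoprotein, fell in posterior libraries over both strains. C57BL/6J standard mice 1 to 4 had 1247, 1274, 862 and 1273 anterior and 674, 771, 559.8 and 754 posterior CPM, without overlap. Enriched C57BL/6J mice 1 and 3 had 1075 and 1014 anterior CPM, and mice 1 to 4 had 1189, 613, 649 and 639 posterior CPM, the first above both anterior values. In B6D2F1N standard mice 1 to 5 anterior CPM were 1064, 1013, 587.5, 1166 and 1176 and posterior CPM 1042, 602, 674, 372 and 404, which overlapped through mice 1 and 3. Enriched B6D2F1N mice 1, 2, 3, 4 and 6 had 726, 813, 583, 1693 and 881 anterior CPM, and the 6 posterior libraries lay between 473 and 865 CPM with a median of 743.5, also overlapping. Thy1 was lower in 13 of 16 mice, with a log2 fold change of -0.56 ± 0.14 over both strains (95% interval -0.85 to -0.27, 1.47-fold lower, adjusted p = 0.0108 in edgeR). In C57BL/6J it was -0.58 ± 0.15 (adjusted p = 0.0403), a call that held only without enriched mouse 1 among the 6 fits that left out 1 mouse (-0.71 to -0.51), and in B6D2F1N it was -0.56 ± 0.21 (adjusted p = 0.16). Without the high-Adora2a mice the value over both strains was -0.40 (adjusted p = 0.0988 in edgeR).

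**Figure D3:**
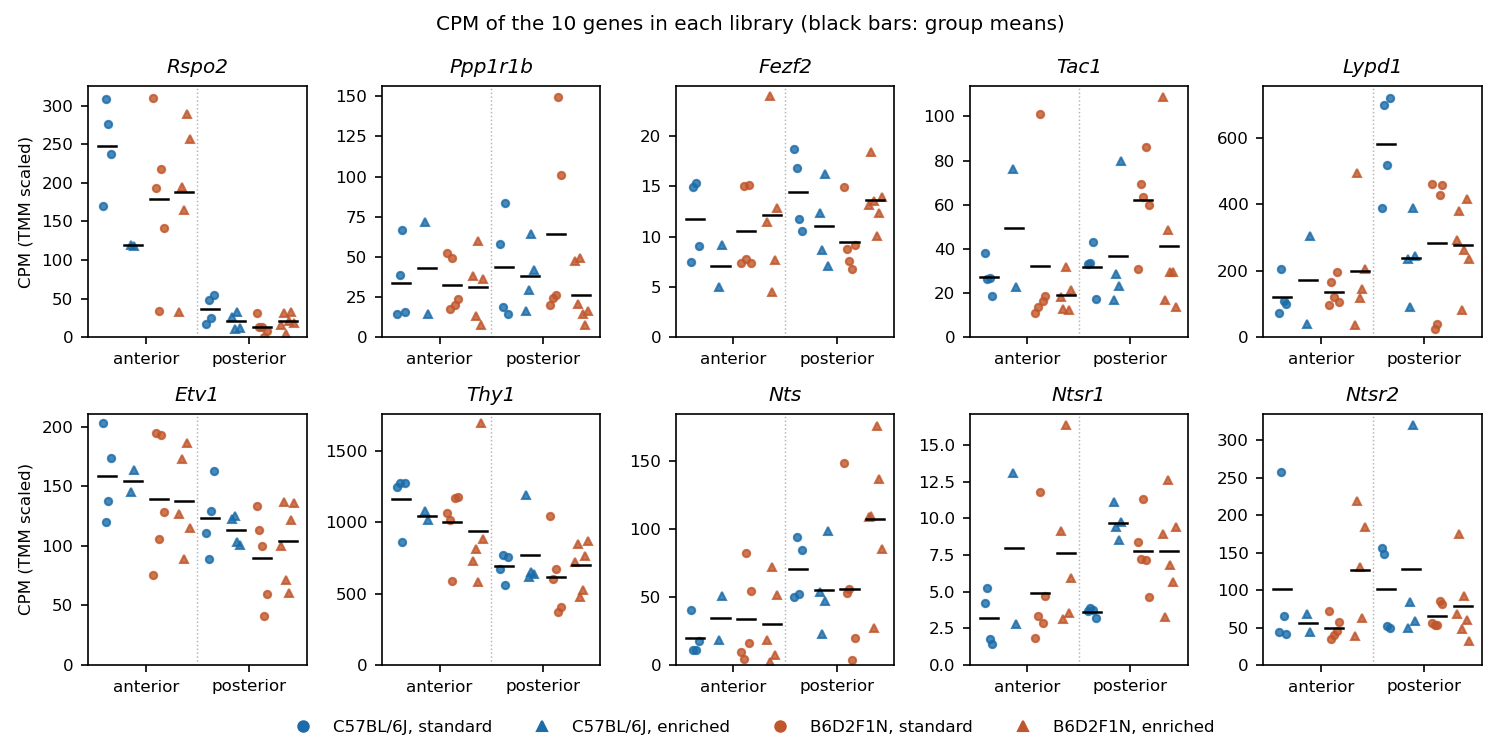
CPM (linear axes from 0) of the 10 members in each library, by portion, strain (colour) and housing (symbol), with points for libraries and black bars for group means. Rspo2 separates the portions in every strain and housing pair of groups, and Thy1 is the member with the highest CPM except in the posterior libraries of B6D2F1N standard mice 4 and 5, where Lypd1 is (428 and 457 CPM).

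Counted over the members, 4 of 10 passed the threshold in C57BL/6J (Lypd1 and Nts higher, Rspo2 and Thy1 lower in posterior libraries), where 3.64% of all genes tested passed. In B6D2F1N it was 2 of 10 (Tac1 higher, Rspo2 lower), against 4.0% of all genes, and over both strains 3 of 10 (Lypd1 higher, Rspo2 and Thy1 lower), against 8.6%. DESeq2 called 4, 2 and 4 members, and 5.87%, 7.18% and 11.7% of all genes. Median log2 fold changes of the members were 0.34, 0.23 and 0.30, and those of all genes tested 0.01, 0.15 and 0.12. In C57BL/6J, 4.16% of genes were higher in the posterior library of each of the 6 mice, as Lypd1 was, and 4.32% were lower in each, as Rspo2 and Etv1 were.

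**Figure D4:**
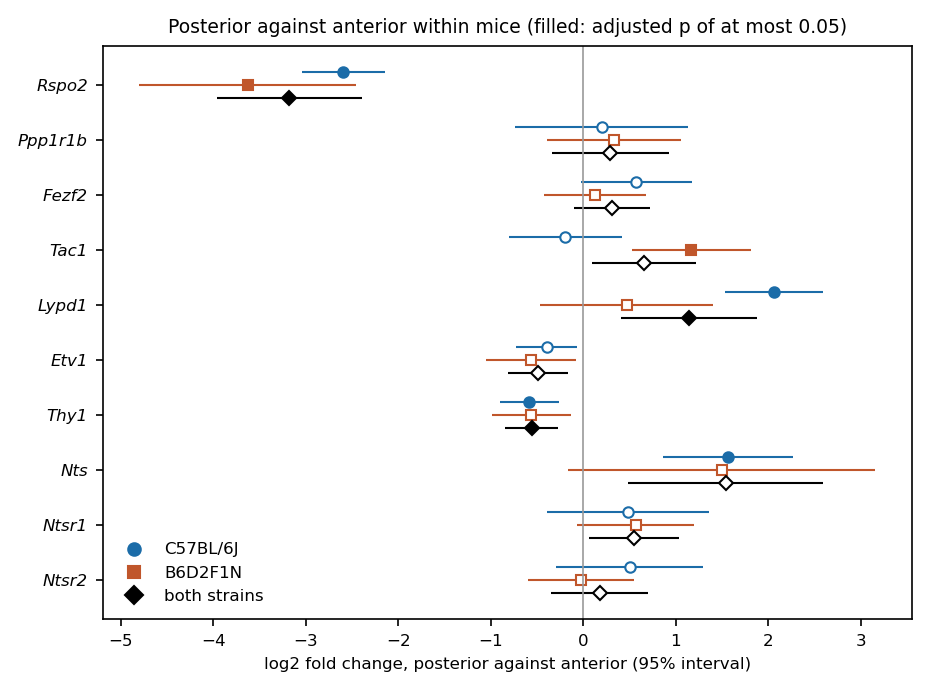
Log2 fold change, posterior against anterior, of the 10 members in C57BL/6J, B6D2F1N and both strains, with 95% intervals from edgeR and filled points past the threshold. Rspo2 lies far below 0 in each fit (-2.59, -3.63 and -3.18), and the intervals of Ppp1r1b include 0 in each.

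Whether the portion difference itself depended on strain or housing was tested in mice with both portions. No member passed for portion by strain (0.0% of all genes did), where 2 of 10 and 2.78% of all genes had an unadjusted p under 0.05 in edgeR and DESeq2 called 0, and none passed for portion by housing (0.0% of all genes), where 0 of 10 and 3.02% of all genes had such a p and DESeq2 called 0. The difference of log2 fold changes, B6D2F1N minus C57BL/6J, was 1.54 ± 0.44 for Tac1 and -1.55 ± 0.61 for Lypd1 (edgeR adjusted p = 1.0 for both). For Rspo2 it was -1.18 with an interval from -2.52 to 0.16, and for Ppp1r1b 0.26 with one from -1.02 to 1.54. Enriched minus standard, it was 0.75 for Rspo2 (-0.58 to 2.08) and -0.45 for Ppp1r1b (-1.69 to 0.79). The calls of Tac1 in B6D2F1N and of Lypd1 and Nts in C57BL/6J were thus not shown to differ between strains.

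Strains were compared within each housing and portion, and no member passed the threshold in edgeR. All-gene shares were 0.37% in standard anterior, 0.373% in standard posterior, 0.0639% in enriched anterior and 0.394% in enriched posterior libraries. Members with an unadjusted p under 0.05 numbered 1, 2, 1 and 1 of 10, where 9.0%, 10.3%, 4.33% and 9.11% of all genes had such a p, and DESeq2 called 0, 1, 0 and 0. The DESeq2 call was Ntsr1 in standard posterior libraries, at 3.68, 3.85, 3.78 and 3.21 CPM in C57BL/6J against 8.38, 7.23, 11.3, 7.18 and 4.66 CPM in B6D2F1N. The groups did not overlap, with a log2 fold change of 1.11 ± 0.36 (adjusted p = 0.38 in edgeR, 0.0393 in DESeq2, which called 1.56% of all genes). Tac1 in the same libraries stood at 0.98 ± 0.30 in B6D2F1N against C57BL/6J (adjusted p = 0.34 in edgeR, 0.11 in DESeq2), with 33.2, 33.5, 43.1 and 17.4 CPM against the 5 values given above, of which the lowest was 31.0. In enriched anterior libraries Tac1 was at -1.34 ± 0.47 (adjusted p = 1.0 in edgeR), a value that was -0.20 without C57BL/6J enriched mouse 1, 1 of only 2 libraries of its group. Ntsr2 in standard anterior libraries was at -1.02 ± 0.43 (adjusted p = 0.54 in edgeR) and at -0.01 without C57BL/6J standard mouse 2, whose 258 CPM lay above the 65.3 CPM of the next mouse. Nts in enriched posterior libraries was at 0.96 ± 0.43 (adjusted p = 0.53 in edgeR).

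Enriched and standard housing were compared within each strain and portion, again with no member past the threshold in edgeR. All-gene shares were 0.0% in C57BL/6J anterior, 0.0163% in C57BL/6J posterior, 0.0% in B6D2F1N anterior and 0.0% in B6D2F1N posterior libraries. An unadjusted p under 0.05 was found for 1, 2, 1 and 1 of the 10 members and for 6.2%, 10.3%, 6.3% and 6.59% of all genes, and DESeq2 called 1, 2, 0 and 0. In C57BL/6J anterior libraries Rspo2 was at the 4 standard values of 169 to 309 CPM and the 2 enriched values of 119 and 119.5 CPM, without overlap. Its log2 fold change was -1.08 ± 0.27 (adjusted p = 0.54 in edgeR, 0.0197 in DESeq2, where 0.437% of all genes passed). In C57BL/6J posterior libraries Ntsr1 was at 3.68, 3.85, 3.78 and 3.21 CPM in standard and 11.1, 9.42, 8.50 and 9.79 CPM in enriched mice, again without overlap. The Ntsr1 value was 1.42 ± 0.36 (adjusted p = 0.20 in edgeR, 0.0014 in DESeq2, where 1.3% passed), and its standard libraries are those of the strain comparison above. Lypd1 in these libraries was at -1.30 ± 0.35 (adjusted p = 0.23 in edgeR, 0.0231 in DESeq2), with the lowest standard value of 387 CPM just under the highest enriched one of 388 CPM. In the same comparison the myelin gene Mbp rose by 1.97, and the summed level of 6 oligodendrocyte markers was 8009 to 12540 CPM in standard and 17820 to 27910 CPM in enriched mice; its part in the Ntsr1 and Lypd1 values was not tested.

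In B6D2F1N, Ntsr2 in anterior libraries was at 72.7, 34.5, 39.6, 45.4 and 56.8 CPM in standard and 38.7, 219, 131, 62.2 and 184 CPM in enriched mice. The groups overlapped, and the log2 fold change was 1.34 ± 0.38 (adjusted p = 0.77 in edgeR). Ppp1r1b in posterior libraries was at -1.30 ± 0.55 (adjusted p = 0.75 in edgeR), and at 0.12 without the mice with high Adora2a, which include the 2 standard mice at 149 and 101 CPM. The interaction of strain and housing gave no member past the threshold in anterior (0.0% of all genes) or posterior libraries (0.0%), with 1 and 2 members (5.98% and 8.38% of all genes) at an unadjusted p under 0.05 in edgeR and 0 and 0 called by DESeq2. Those were Ntsr2 in anterior (2.20 ± 0.83, adjusted p = 0.81 in edgeR) and Ntsr1 (-1.41 ± 0.48, adjusted p = 0.49) and Fezf2 (0.91 ± 0.42, adjusted p = 0.55) in posterior libraries.

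Optimists and pessimists were compared with strain and housing as terms, in 4 against 4 anterior and 4 against 5 posterior libraries. All 4 optimists lived in standard housing and 1 of the 5 pessimists did, so that housing and bias can hardly be told apart. No member passed the threshold in anterior (0.00414% of all genes) or posterior libraries (0.00396%), with 1 and 1 members (4.13% and 3.5% of all genes) at an unadjusted p under 0.05 in edgeR and 0 called by DESeq2. They were Etv1 in anterior libraries (0.99 ± 0.40 in optimists, adjusted p = 0.88 in edgeR) and Thy1 in posterior ones (-1.05 ± 0.47, adjusted p = 1.0).

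Around the members, 7 lists of genes of their pathways were followed between portions over both strains. Of 54 genes tested, 21 passed (4 higher and 17 lower in posterior libraries), where 8.6% of all genes did. Among R-spondins, their receptors and their Wnt targets, 2 of 11 passed, with a median of 0.41. Lgr5, a receptor of R-spondins, was lower with Rspo2 (-2.68 ± 0.52, adjusted p = 0.000887 in edgeR), at 3.89 to 36.0 CPM (median 24.2) in anterior and 0.0559 to 13.2 CPM (median 4.86) in posterior libraries. Rspo3, another secreted R-spondin, rose by 0.96 ± 0.25 (adjusted p = 0.0125 in edgeR), opposite to Rspo2. The Wnt target Axin2 was at 0.41 (adjusted p = 0.40).

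In the list of genes around DARPP-32, protein kinase A and phosphatases, 5 of 16 fell and none rose, with a median of -0.29. They were the kinase subunit genes Prkar1b (-0.85, adjusted p = 1.19e-06 in edgeR), Prkaca (-0.40) and Prkacb (-0.38), and also Arpp19 (-1.06, adjusted p = 1.02e-05) and Cdk5r1, an activator of the kinase Cdk5 (-0.47, adjusted p = 0.011). Among the tachykinin genes, 2 of 4 tested passed, with a median of 1.95. Tac2, the neurokinin B precursor, fell (-1.02, adjusted p = 0.00598 in edgeR), and Tacr1, the substance P receptor, rose (2.09 ± 0.51, adjusted p = 0.00765), while Tacr3 was at 1.82 (adjusted p = 0.27). Tacr1 lay at 0 to 29.1 CPM (median 5.19) in anterior and at 3.30 to 63.5 CPM (median 23.5) in posterior libraries.

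Both sorting receptors that bind neurotensin fell, Sorl1 by 0.95 (adjusted p = 1.15e-06 in edgeR) and Sort1 by 0.78 (adjusted p = 7.79e-05) on the log2 scale, with a median of -0.87. Of 5 genes of peptide processing, 4 fell (median -0.44): the prohormone convertases Pcsk2 (-1.30, adjusted p = 5.42e-08 in edgeR) and Pcsk1 (-1.08, adjusted p = 3.12e-06), the carboxypeptidase Cpe (-0.44) and the convertase chaperone Scg5 (-0.29, adjusted p = 0.0413). The Scg5 call held in 5 of the 16 fits that left out 1 mouse, those without C57BL/6J standard mouse 1 or 2, B6D2F1N standard mouse 1 or 3 or B6D2F1N enriched mouse 2. It was also lost with no minimum count (adjusted p = 0.0639 in edgeR), without the block (0.117), without the high-Adora2a mice (0.187) and without the high-Ttr mice (0.124). Pcsk2 lay at 431 to 1838 CPM in anterior and 219 to 622.5 CPM in posterior libraries. Pam, which amidates peptides, and Scg5 were the pathway genes that passed in another comparison: both were higher in B6D2F1N than in C57BL/6J in standard anterior libraries (0.90, adjusted p = 0.0237, and 0.80, adjusted p = 0.0439, in edgeR). Of the 9 fits that left out 1 mouse, the Pam call held in 3, without C57BL/6J standard mouse 2 or B6D2F1N standard mouse 1 or 4, and the Scg5 call in 1, without B6D2F1N standard mouse 3. With the library number as a term the adjusted p was 0.0708 for Pam and 0.0797 for Scg5 in edgeR, and without the high-Adora2a mice 0.546 and 0.714. The Scg5 call was also lost in 1 fit of the 4 groups of the portion (adjusted p = 0.0531 in edgeR) and with no minimum count (0.114).

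Of the Ly6 and nicotinic receptor genes, 4 of 7 passed (1 higher, 3 lower, median -0.18). The receptor subunit gene Chrna4 (-1.29, adjusted p = 0.000863 in edgeR) and the Ly6 genes Lynx1 (-1.08, adjusted p = 0.0109) and Lypd6 (-0.69) fell, and Ly6h rose (0.67, adjusted p = 0.00624), in the direction of Lypd1. Lynx1 was at -0.71 and lost its call both without the block (adjusted p = 0.133 in edgeR) and without the high-Adora2a mice (adjusted p = 0.0986). Among transcription factors related to Fezf2 and Etv1, 2 of 9 passed, with a median of 0.15. Sox5, a factor of deep-layer cortical neurons, fell (-1.30, adjusted p = 3.86e-07 in edgeR), Crym, which encodes a thyroid hormone-binding protein, rose (1.18, adjusted p = 3.67e-06), and Tle4 was at 0.34 (adjusted p = 0.32).

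**Figure D5:**
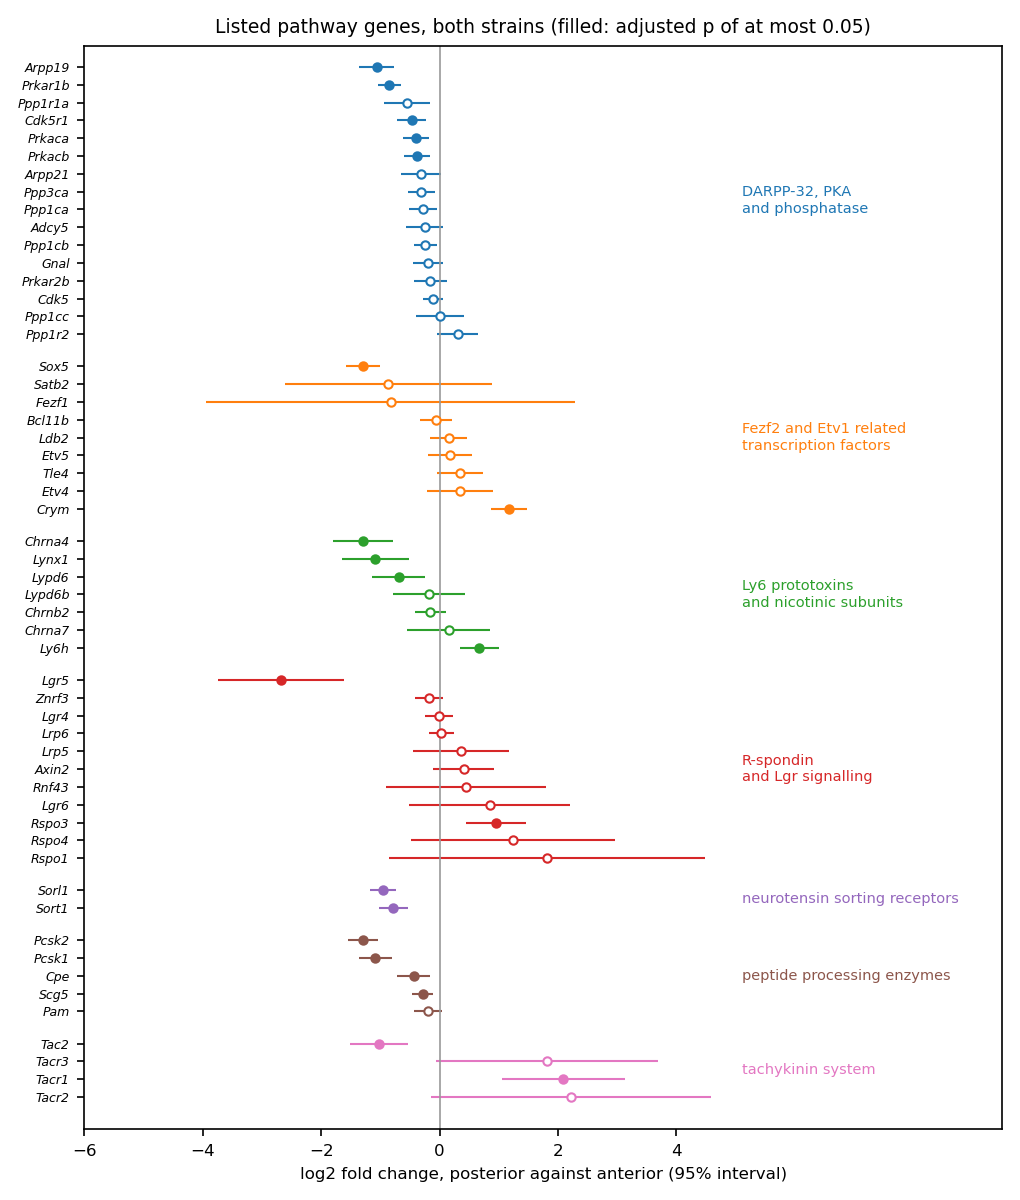
Log2 fold change, posterior against anterior over both strains, of the tested genes of the 7 pathway lists, 1 row per gene with its 95% interval and 1 colour per list, filled where past the threshold. Lgr5 (-2.68) and Tacr1 (2.09) lie farthest out among the filled points, and both sorting receptors and the peptide processing genes lie below 0.

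Genes whose log2 CPM followed that of a member most closely over the 35 libraries were sought among 11712 genes with a mean of at least 5 CPM. For Rspo2 they were Prss23 (Pearson's r = 0.88), Angptl1 (0.87), Glipr1 (0.87), Bdnf (0.86) and Ucma (0.86), and the values share library and portion. Bdnf, the neurotrophin, averaged 259 ± 108 CPM (SD, n = 16) in anterior and 62.1 ± 22.4 CPM (n = 19) in posterior libraries, and Prss23, a secreted protease, 154 ± 79.4 and 24.4 ± 33.5 CPM. For Ppp1r1b they were Rasgrp2 (0.78), Hmgb3 (0.67), Ppp1r2 (0.65), Meis3 (0.63) and Adora2a (0.62). The means of Rasgrp2, a guanine nucleotide exchange factor of striatal neurons, were 13.0 ± 7.09 CPM in anterior and 12.8 ± 5.00 CPM in posterior libraries, and those of Adora2a 17.0 ± 18.1 and 60.9 ± 121 CPM.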

How the data were processed

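The authors read the RNA of laser-captured cells in single 72-base reads. The submitters' processing notes name bcl2fastq, FastQC 0.11.7, Trimmomatic 0.38, HISAT2 2.1.0, SAMtools 1.8, HTSeq 0.11.2 and the build GRCm38 (mm10); the annotation release and the strand setting of counting are not given in the sources used here. The deposited values are raw read counts per Ensembl gene and library. Rows without a gene, the reads HTSeq left unassigned (25.5% to 37.7% of all), were left out of the totals, which ran from 16938534 to 27352623. Of 52636 genes, 52489 were matched to the GENCODE annotation of GRCm38. None of the 595 pairs of libraries held identical counts.

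All tests were run on whole tables in R 4.3.3 with edgeR 4.0.16 (TMM factors 0.811 to 1.23, quasi-likelihood F test, genes with at least 10 counts in total, Benjamini-Hochberg adjustment over all genes tested, threshold 0.05). Comparisons of portions had the mouse as a block, since the study took both portions from the same animals, and 3 mice with a single portion did not enter them. Deviations from group means correlated with a median r of 0.048 between libraries of the same mouse and -0.017 between different mice, over 16000 genes. Other comparisons used the libraries of the groups compared. CPM carry TMM factors. The log2 CPM used for differences within mice, for relations to marker lists and for likeness between genes carry a prior count of 2. Levels per kilobase used the union of exons. Errors of CPM are SD over libraries, those of log2 fold changes are SE. The steps were tested on simulated counts.

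The members and gene lists were chosen with earlier results of these data known. Named were the 10 members; from each of 7 pathway lists up to 3 genes with the smallest p for portion over both strains and those past the threshold for strain or housing; cell type markers beside a result; and the 5 genes most correlated with Rspo2 and with Ppp1r1b. Prkaca, Prkacb, Cpe and Lypd6 were named in addition, after their values were seen, to complete counts of 5 or fewer. Alternatives were DESeq2 1.42.0, DESeq2 size factors, edgeR's filterByExpr or no minimum count, no replicate block, 1 fit of the 4 groups of a portion, the library number as a term, and each mouse left out. Leaving out mice with Adora2a above 100 CPM or Ttr above 10000 CPM in the posterior library was added after seeing the data.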

Additional observations from a re-analysis of the deposited data

Results flagged for a closer look

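In 10 of 70 groups of 4 or more libraries, the highest or lowest CPM of a member lay farther from the rest than Dixon's 95% limit. For independent groups of normally distributed values that limit flags about 1 in 20, or 3.5 of 70. CPM need not be normally distributed and the members share libraries, so 3.5 is only a guide. The anterior library of B6D2F1N standard mouse 3 stood apart for 3 members, with Tac1 at 101 CPM (the other 4 lay between 11.0 and 18.7), Ntsr1 at 11.8 CPM (others 1.85 to 4.70) and Thy1 at 587.5 CPM (others 1013 to 1176). Thy1 was also flagged in C57BL/6J standard mouse 3 anterior (862 CPM, others 1247 to 1274), in B6D2F1N enriched mouse 4 anterior (1693 CPM, others 583 to 881) and in C57BL/6J enriched mouse 1 posterior (1189 CPM, others 613 to 649). Ntsr2 stood apart in C57BL/6J standard mouse 2 anterior (258 CPM, others 40.8 to 65.3) and C57BL/6J enriched mouse 3 posterior (321 CPM, others 49.8 to 84.0). Tac1 did so in B6D2F1N enriched mouse 1 posterior (109 CPM, others 13.5 to 48.5) and Fezf2 in B6D2F1N standard mouse 1 posterior (14.9 CPM, others 6.79 to 9.13).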

How the results depend on the processing

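Rspo2 kept its direction and its call for portion under every alternative run. The number of members past the threshold over both strains went from 3 to 5 with no minimum count and to 5 without the replicate block, and in B6D2F1N from 2 to 1 without the block, without the high-Adora2a mice and without the high-Ttr mice. Without the block the Tac1 call in B6D2F1N (1.06, adjusted p = 0.12 in edgeR) and the Thy1 call in C57BL/6J (-0.57, adjusted p = 0.12) were lost, and Etv1 (adjusted p = 0.0406) and Nts (adjusted p = 0.0279) were gained over both strains. The filter filterByExpr lost the Thy1 call in C57BL/6J (-0.57, adjusted p = 0.054 in edgeR) and the Lypd1 call over both strains (1.145, adjusted p = 0.0517). DESeq2 gave 1 member in place of 0 for strain in standard posterior and for housing in C57BL/6J anterior libraries, and 2 in place of 0 for housing in C57BL/6J posterior libraries. With no minimum count there was 1 in place of 0 for housing in C57BL/6J anterior and for bias in posterior libraries. Direction turned for Ppp1r1b without the high-Adora2a mice (portion -0.17 in B6D2F1N and -0.0438 over both strains; housing in B6D2F1N posterior 0.12), for Fezf2 (-0.043) and Ntsr2 (0.0613) in B6D2F1N without the high-Ttr mice, and for Ntsr2 between strains in standard anterior libraries with the library number as a term (0.13). Levels per kilobase of the longest transcript were 18.9 for Etv1 and 487 for Thy1. The cause of these shifts was not tested. In fits without 1 mouse there were 2 to 4 members in C57BL/6J (2 without standard mouse 4), 1 to 2 in B6D2F1N, 2 to 4 over both strains, 0 to 1 for housing in C57BL/6J posterior libraries (1 without enriched mouse 3) and 0 in the other comparisons. Over these fits Ppp1r1b ranged from -0.21 to 0.68 in C57BL/6J, Tac1 in C57BL/6J from -0.38 to 0.17, Fezf2 in B6D2F1N from -0.00795 to 0.28 and Ntsr2 in B6D2F1N from -0.12 to 0.23. Ntsr1, at a lowest count of 25, was limited most by depth after Rspo2 in 1 posterior library. C57BL/6J enriched anterior libraries numbered 2, so each lone library there was assumed to vary like the other groups when 1 was left out.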
